A study of Mus musculus with 8 samples.

Results

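Contractile and myofibroblast genes encode the parts of the actin stress fibre and its control by serum response factor, and they were followed here in mouse embryonic fibroblasts (MEFs) given interferon-beta. The members were fixed by gene symbol: the muscle actin genes Acta2, Actg2 and Acta1, the tropomyosin genes Tpm1 and Tpm2, Tagln, Cnn1, Myl9, Vcl and Srf. All 10 symbols were found among the 24015 gene symbols of the count tables. The treated group held 2 RNA-seq libraries from MEFs given 100 units/mL of mouse recombinant IFN-beta for 6 h, and the untreated group held 2 libraries from MEFs left without it. Both groups were wild type cells on a C57bl/6 background from E12.5 embryos, at passages 15 to 18, and neither carried the HA-tagged histone H3.3 that gives the series its title. The chromatin samples of the series were not analysed here. The labels do not say that replicates came from separate cultures or embryos, so the p-values here weigh treatment against library-to-library spread that could be technical.

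Fibroblasts in culture pull on their substrate through stress fibres, bundles of actin, myosin and tropomyosin that end at focal adhesions. A fibroblast that adds smooth muscle actin to these bundles is called a myofibroblast, the contractile cell of wound closure and fibrosis. Many genes of this apparatus share a control element, the CArG box, which is bound by serum response factor (SRF). When the pool of actin monomers falls, the coactivators encoded by Mkl1 and Mkl2 enter the nucleus and join SRF there, and ternary complex factors such as the Elk proteins compete for the same partner. TGF-beta and tension on the substrate are known inducers of this programme, and type I interferon is better known for its antiviral genes.

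The sequences shown are promoters in which the CArG box was searched. The members had been chosen as smooth muscle actins and contractile genes controlled by SRF. Their share of boxes follows in part from that choice and is no independent test of it. RefSeq promoter windows (build GRCm38.p6, 250 bases before to 50 bases after the annotated start) were matched by symbol for 8 of the 10 members, without Actg2 and Tagln. An exact CArG box lay in the windows of 4 of these 8 genes, Acta1, Myl9, Vcl and Srf, and in 1.63% of all 32851 windows in the table. Allowing at most 1 letter of the box to differ, 6 of the 8 genes had a match, beside 21.1% of all windows. Acta2 and Tpm1 joined the list, and Cnn1 and Tpm2 had no match of either kind. The letters GAAA, any 2 bases and GAAA again, a core of the interferon-stimulated response element, were in 0 of the 8 windows on either strand, beside 3.44% of all windows. A match is a run of letters and not a measured binding site, and a window without one says nothing about binding elsewhere. The 250 bases upstream of the start are given for 5 genes, from chr19:34255374-34255623 (minus strand) for Acta2, chr8:123894776-123895025 (minus strand) for Acta1, chr2:156775214-156775463 (plus strand) for Myl9, chr14:20929148-20929397 (plus strand) for Vcl and chr17:46556163-46556412 (minus strand) for Srf. Capitals mark exact CArG boxes in the last 4 genes and, in Acta2, matches with 1 letter different.
Acta2: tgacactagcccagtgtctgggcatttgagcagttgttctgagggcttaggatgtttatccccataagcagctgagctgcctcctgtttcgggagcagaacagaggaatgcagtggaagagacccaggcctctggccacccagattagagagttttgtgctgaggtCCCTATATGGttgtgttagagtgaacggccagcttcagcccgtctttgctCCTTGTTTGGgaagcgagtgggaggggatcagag
Acta1: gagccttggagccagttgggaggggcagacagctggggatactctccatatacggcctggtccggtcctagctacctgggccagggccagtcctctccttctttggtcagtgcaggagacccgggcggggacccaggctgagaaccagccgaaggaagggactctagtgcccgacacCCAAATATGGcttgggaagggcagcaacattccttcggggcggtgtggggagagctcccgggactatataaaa
Myl9: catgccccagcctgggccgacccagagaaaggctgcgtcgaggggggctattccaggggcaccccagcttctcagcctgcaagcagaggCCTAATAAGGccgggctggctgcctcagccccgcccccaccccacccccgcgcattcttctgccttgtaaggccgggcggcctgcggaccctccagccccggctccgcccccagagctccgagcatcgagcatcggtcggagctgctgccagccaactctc
Vcl: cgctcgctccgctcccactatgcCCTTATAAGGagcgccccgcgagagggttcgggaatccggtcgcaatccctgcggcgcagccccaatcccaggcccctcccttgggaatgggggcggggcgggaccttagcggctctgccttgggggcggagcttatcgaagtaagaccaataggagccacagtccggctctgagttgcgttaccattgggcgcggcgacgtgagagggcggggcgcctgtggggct
Srf: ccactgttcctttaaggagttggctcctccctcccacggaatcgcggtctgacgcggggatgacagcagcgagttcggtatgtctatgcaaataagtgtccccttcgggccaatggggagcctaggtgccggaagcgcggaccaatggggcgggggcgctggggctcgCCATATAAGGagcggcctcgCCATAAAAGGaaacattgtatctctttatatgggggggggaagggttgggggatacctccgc
The exact box ended 64 bases upstream of the annotated start in Acta1, 152 bases upstream in Myl9 and 218 bases upstream in Vcl. Srf, which is itself a target of SRF, held 2 exact boxes, which ended 73 and 53 bases upstream.

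No contractile gene was called as changed after 6 h of IFN-beta, and the genes were not tested as a set. With 10 members, a count of 0 lies near the share of all tested genes that was called. None of the 10 members passed the threshold, 0 higher and 0 lower (quasi-likelihood test of edgeR at an adjusted p below 0.05, with Benjamini-Hochberg adjustment over 12128 genes), beside 4.73% of all tested genes called higher and 0.495% called lower. DESeq2 also called 0 of the 10, with 5.13% of tested genes higher and 0.849% lower, and so did limma-voom, with 4.82% and 0.453%. At an unadjusted p below 0.05 the counts were 1 higher (Vcl) and 2 lower (Cnn1 and Myl9), beside 9.6% of all tested genes on the higher side and 8.56% on the lower side. All 10 members had enough counts to be tested. Their median log2 fold change was 0.06, against a median of -0.02 over all tested genes, and the members ran between -0.38 and 0.43. The interferon response itself was large in the same libraries. Isg15, which encodes the ubiquitin-like modifier of antiviral defence, had 115 and 118 CPM (counts scaled to a library of 1e6) in the IFN-beta libraries, against 0.416 and 0.114 CPM in the untreated ones. Ifit1, whose protein binds viral RNA ends, had 1725 and 1978 CPM in IFN-beta libraries, against 1.25 and 1.14 CPM in untreated libraries.

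**Figure D1:**
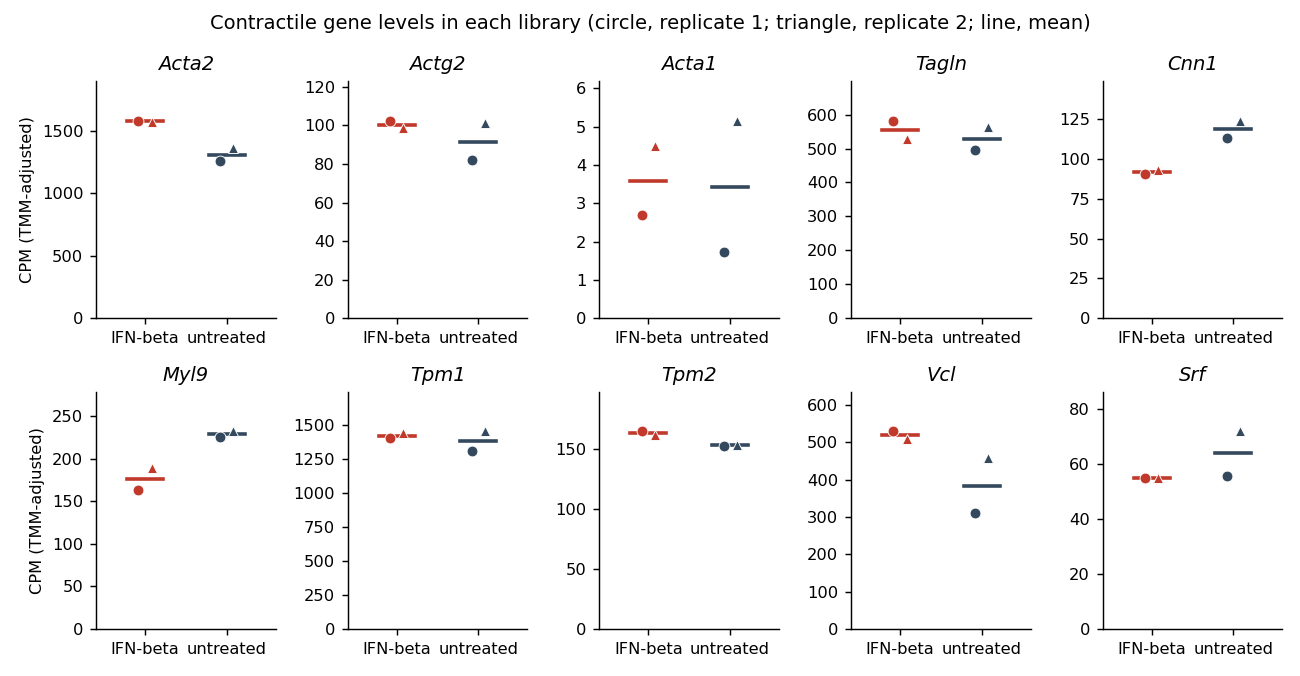
Level of each contractile gene in the 4 libraries, in CPM with TMM-adjusted library sizes, with IFN-beta libraries in red on the left and untreated libraries in dark grey on the right of each panel. Circles are replicate 1, triangles are replicate 2 and lines are group means; Cnn1, Myl9 and Srf sit lower in both IFN-beta libraries than in both untreated ones, and Acta2, Tpm2 and Vcl sit higher.

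Smooth muscle alpha-actin, the defining protein of myofibroblasts, is encoded by Acta2. Its level was 1583 and 1572 CPM in the IFN-beta libraries, against 1256 and 1364 CPM in the untreated libraries. Both treated values lay above both untreated ones, and the treated pair was almost identical. The log2 fold change was 0.27 ± 0.13 (SE), which is a fold of 1.20 with a 95% interval between 0.979 and 1.48 (adjusted p = 0.325). The smooth muscle gamma-actin gene Actg2, typical of gut and bladder muscle, had 103 and 98.4 CPM in IFN-beta libraries, against 82.0 and 101 CPM in untreated ones. The groups overlapped, because untreated replicate 2 reached the treated level, and the log2 fold change was 0.13 ± 0.14 (95% interval -0.18 to 0.44, adjusted p = 0.658). Skeletal muscle alpha-actin, encoded by Acta1, was barely present, with 48 and 89 counts in the IFN-beta libraries, against 33 and 136 counts in the untreated libraries. Both extremes of Acta1 were untreated libraries, so the 95% interval of its fold was wide, between 0.514 and 2.03, around a log2 fold change of 0.03 ± 0.44 (adjusted p = 0.979). The cardiac actin gene Actc1 had 0 counts in all 4 libraries. Actin genes are close relatives, and reads without a unique alignment stood in a summary line and were counted for no gene. How many of those reads came from actin genes was not measured, so the levels of single actin genes are uncertain.

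Tropomyosins, the rod-like proteins that wrap along actin filaments and gate the access of myosin, gave the smallest differences beside Acta1 and Tagln. Tpm1 had 1403 and 1439 CPM in IFN-beta libraries, against 1309 and 1455 CPM in untreated libraries. The treated pair lay inside the untreated range, and the log2 fold change was 0.04 ± 0.14 (95% interval -0.26 to 0.34, adjusted p = 0.906). Tpm2 had 164 and 161 CPM in IFN-beta libraries, against 153 and 153 CPM in untreated ones. The 4 values of Tpm2 were the most even of the set, with treated libraries slightly above untreated ones, and the 95% interval of the fold was 0.887 to 1.28 (adjusted p = 0.739).

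Tagln, Cnn1 and Myl9, which encode regulators of actin and myosin in smooth muscle, were not called. Tagln encodes transgelin (SM22-alpha), an actin cross-linker and an early marker of smooth muscle. It had 582 and 529 CPM in IFN-beta libraries, against 495 and 563 CPM in untreated libraries. These groups overlapped, with a log2 fold change of 0.07 ± 0.13 (95% interval -0.23 to 0.37, adjusted p = 0.825). Cnn1 encodes calponin 1, which binds actin and slows the myosin motor. It had 90.6 and 93.0 CPM in IFN-beta libraries, against 113 and 124 CPM in untreated libraries. Both treated libraries were below both untreated ones, at a fold of 0.773 with a 95% interval of 0.638 to 0.937 (log2 fold change -0.37 ± 0.12, adjusted p = 0.143). Myl9 encodes the regulatory light chain through which phosphorylation switches smooth muscle and non-muscle myosin on. It had 163 and 189 CPM in IFN-beta libraries, against 226 and 232 CPM in untreated libraries. The groups did not overlap here either, and the fold of 0.769 (95% interval 0.632 to 0.936) missed the threshold after adjustment (log2 fold change -0.38 ± 0.13, adjusted p = 0.146). The intervals of Cnn1 and Myl9 exclude equal levels 1 gene at a time, without correction for the number of genes tested.

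Vinculin, encoded by Vcl, couples talin and integrins to actin at focal adhesions and carries tension there. Its level was 529 and 508 CPM in the IFN-beta libraries, against 310 and 458 CPM in the untreated libraries. Both treated libraries were above both untreated ones, but the untreated pair was further apart than the higher untreated library was from the treated pair. The log2 fold change of 0.43 ± 0.18 was the highest among the members (fold 1.35, 95% interval 1.03 to 1.77, adjusted p = 0.231).

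Srf, the transcription factor gene itself, had 54.81 and 54.77 CPM in the IFN-beta libraries, against 55.7 and 71.9 CPM in the untreated libraries. The treated pair was just under untreated replicate 1 and well under untreated replicate 2. Its log2 fold change was -0.22 ± 0.15 (95% interval -0.56 to 0.12, adjusted p = 0.478). Values of its coactivator genes, named for their role and after they were seen, overlapped between groups. Mkl1 had 18.2 and 17.0 CPM in IFN-beta libraries, against 12.7 and 19.8 CPM in untreated ones (log2 fold change 0.10 ± 0.21, adjusted p = 0.843). Mkl2 had 30.3 and 28.9 CPM in IFN-beta libraries, against 29.1 and 33.4 CPM in untreated ones (log2 fold change -0.08 ± 0.15, adjusted p = 0.813). Myocardin, the muscle-specific coactivator encoded by Myocd, was close to 0, with 1 count in each IFN-beta library, against 0 and 1 counts in the untreated libraries.

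**Figure D2:**
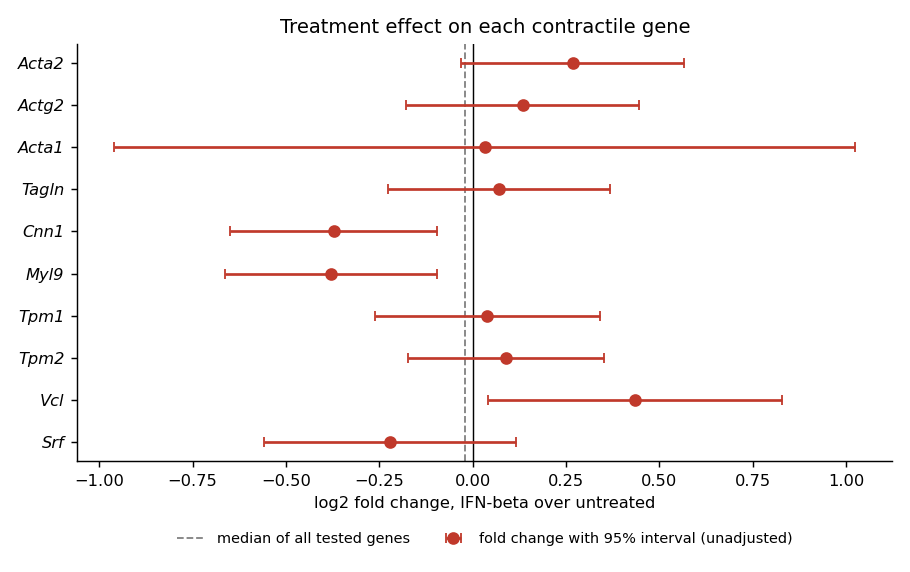
Log2 fold change of each contractile gene, IFN-beta over untreated, with its 95% interval from the edgeR fit, not adjusted for the number of genes. The intervals of Cnn1 and Myl9 lie below 0, that of Vcl lies above 0, and the other 7 include 0; the dashed line is the median of all tested genes at -0.02.

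With TMM scaling, 3 of the 10 members (Acta2, Tpm2 and Vcl) were higher in both IFN-beta libraries than in both untreated libraries, beside 23.9% of tested genes. Another 3 (Cnn1, Myl9 and Srf) were lower in both, beside 26.8%. These counts depended on the scaling. With DESeq2 size factors they were also 3 and 3, beside 25.4% and 25.3% of tested genes. Upper quartile scaling gave 3 and 3, beside 17.6% and 35.4%. Total library size gave 1 higher and 4 lower, beside 11.7% and 45.9%. The share of gene counts taken by the 10 members together was 0.441% and 0.445% in the IFN-beta libraries, against 0.415% and 0.481% in the untreated libraries. The treated values of this share lay between the untreated ones. In a bulk sample, a change in the number of contractile cells and a change in these transcripts per cell cannot be told apart.

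The untreated libraries differed from each other more than the treated ones in most of these genes. The libraries as a whole showed the same order, with a chi-square per gene of 32.3 between untreated replicates and 11.5 between IFN-beta replicates. Among all tested genes, the size of the untreated gap ranked at percentile 99.5 for Acta1, 87.3 for Vcl, 72.0 for Srf and 63.3 for Actg2. The other members ranked lower, between percentiles 1.7 (Tpm2) and 42.6 (Tagln). All 10 members were higher in untreated replicate 2 than in untreated replicate 1, where 50.8% of tested genes were, and this count was 9 of 10 with DESeq2 size factors or upper quartile scaling. Between the IFN-beta libraries, 4 of 10 were higher in replicate 2. The ratio of untreated replicate 2 to replicate 1 was 3.01 for Acta1, 1.48 for Vcl, 1.29 for Srf and 1.23 for Actg2, and ran between 1.005 (Tpm2) and 1.14 (Tagln) in the others. For the same 4 genes the ratio of IFN-beta replicate 2 to replicate 1 was 1.67, 0.959, 0.999 and 0.960. The gap between untreated replicates thus exceeded the treatment difference for Acta1, Actg2, Tagln, Tpm1, Vcl and Srf on the log2 scale. For Acta2, Cnn1, Myl9 and Tpm2 the treatment difference was the larger one.

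**Figure D3:**
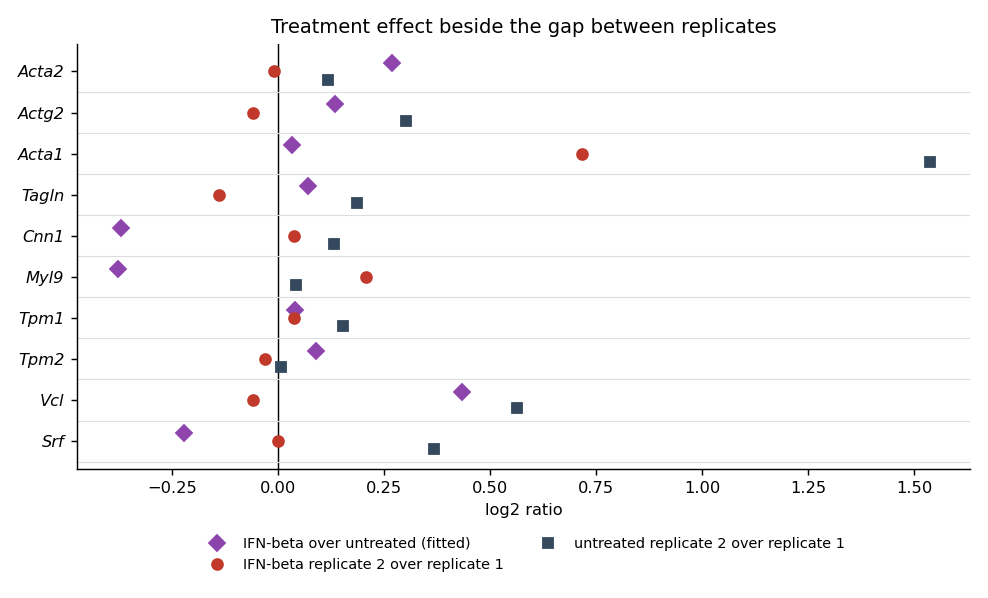
Log2 ratios for each contractile gene: the fitted IFN-beta over untreated effect (diamonds), IFN-beta replicate 2 over replicate 1 (circles) and untreated replicate 2 over replicate 1 (squares), with a prior count of 2 for the replicate ratios. Every square lies at or right of 0, and the squares of Acta1, Actg2, Tagln, Tpm1, Vcl and Srf lie further from 0 than the diamonds.

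Leaving out a library moved several calls, and in such fits 1 group holds a single library that is assumed to vary like the other group. Without untreated replicate 2, Vcl was called higher (log2 fold change 0.74, adjusted p = 7.6e-07), as was Acta1 (1.07, adjusted p = 0.0088), and Myl9 was called lower (-0.36, adjusted p = 0.0209). In that fit 15.3% of tested genes were called higher and 14% lower. Without untreated replicate 1, Cnn1 (-0.41, adjusted p = 0.0188) and Myl9 (-0.37, adjusted p = 0.0449) were called lower, with 1.82% of tested genes called lower and 6.91% higher, while Vcl was at 0.20 and Acta1 at -0.49. Leaving out IFN-beta replicate 1 or IFN-beta replicate 2 called no member, beside 3.75% and 4.27% of tested genes called higher and 0.192% and 0.445% called lower. Acta1 was at 0.36 and -0.38 in those fits. Srf was at -0.02 without untreated replicate 2 and at -0.37 without untreated replicate 1. Actg2 was at 0.29 and 0.01 in the same fits.

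Scaling by total library size moved the median of all tested genes to -0.16. On that scale Cnn1 (-0.52, adjusted p = 0.0433) and Myl9 (-0.52, adjusted p = 0.0446) were called lower, beside 2.89% of tested genes called lower and 3.94% called higher. Relative to the median of all genes under that scaling they were at -0.35 and -0.36, which is near their values with TMM. Without a count filter Vcl was called higher (0.44, adjusted p = 0.0302), beside 5.16% of tested genes called higher and 2.28% called lower. No member was called with DESeq2 size factors in edgeR (4.81% of tested genes higher, 0.445% lower), upper quartile scaling (4.29% and 1.06%), a filter at a CPM of 1 in 2 libraries (4.72% and 0.49%) or the replicate number as a block (5.71% and 1.28%).

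**Figure D4:**
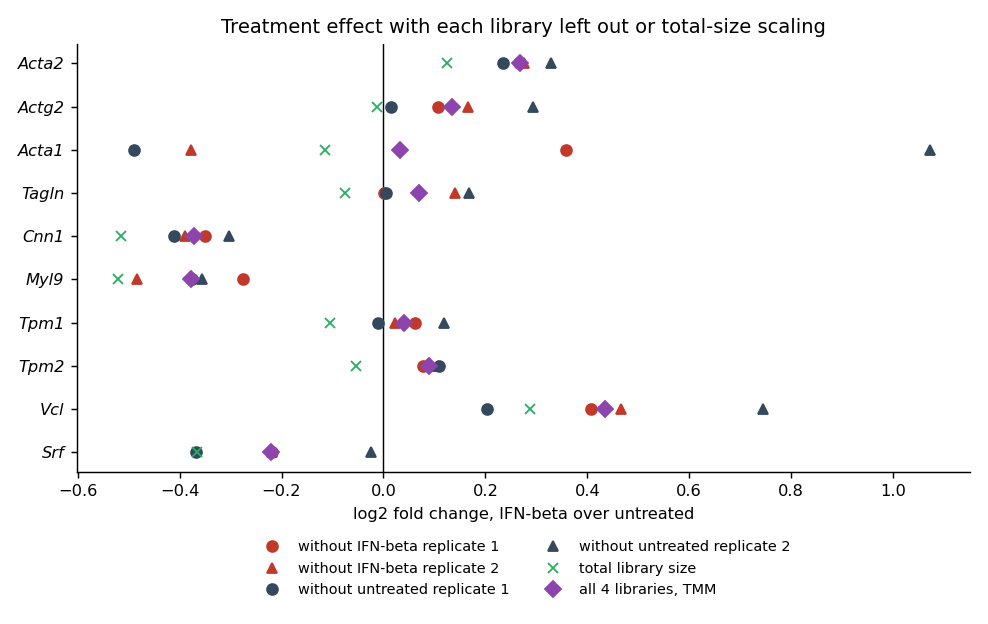
Log2 fold change of each contractile gene, IFN-beta over untreated, with all 4 libraries and TMM scaling (diamonds), with each library left out, and with total library size scaling (crosses). Cnn1, Myl9 and Srf stay below 0 and Acta2 and Vcl stay above 0 in every setting drawn, whereas Acta1 moves between -0.49 and 1.07.

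Related genes came from lists chosen with earlier results of these data known, and their calls stand beside 4.73% of all tested genes called higher and 0.495% called lower, with 9.6% and 8.56% at an unadjusted p below 0.05. Of 12 tested genes among other smooth muscle contractile genes, 0 passed in either direction, with a median log2 fold change of -0.12. At an unadjusted p below 0.05 the count was 0 higher and 1 lower, and DESeq2 and limma-voom called 0. The lowest p-values belonged to Nexn, which encodes the actin-binding protein nexilin (18.6 ± 1.40 CPM in IFN-beta and 24.1 ± 1.69 CPM in untreated libraries, SD, n = 2 each, adjusted p = 0.244), to Ldb3, which encodes a Z-disc protein (log2 fold change -0.81, adjusted p = 0.283), and to Csrp1, which encodes a LIM protein of smooth muscle (0.30, adjusted p = 0.284).

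Among 38 other actin cytoskeleton genes under SRF control, 1 was called higher and 0 lower, and the median log2 fold change was 0.24. Values above 0 were found for 31 of the 38, against 5743 of 12128 tested genes. At an unadjusted p below 0.05 the counts were 9 higher and 0 lower, beside 9.6% and 8.56% of all tested genes. Of the 38, 29 were higher in untreated replicate 2 than in untreated replicate 1, beside 50.8% of all tested genes. The called gene was Filip1l. It rose to 275 and 250 CPM in IFN-beta libraries, against 164 and 159 CPM in untreated libraries (log2 fold change 0.70 ± 0.12, adjusted p = 0.0068, but 0.108 without IFN-beta replicate 1). Fhl2, a LIM-domain partner of SRF, was at 0.45 (adjusted p = 0.0667). The non-muscle myosin gene Myh9 (0.55, adjusted p = 0.166) did not pass. Without untreated replicate 2, 21 of the 38 were called higher, beside 15.3% of all tested genes, and without IFN-beta replicate 1 the count was 0, beside 3.75%. The cytoplasmic actin genes, named after their values were seen, were at 0.36 (Actb, adjusted p = 0.281) and 0.24 (Actg1, adjusted p = 0.485).

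Of 10 tested SRF cofactor genes, 1 was called higher and 0 lower, with a median of 0.09. That gene was Klf4, a zinc finger factor known to restrain smooth muscle genes in vascular muscle. It rose to 41.8 and 26.2 CPM in IFN-beta libraries, against 12.1 and 11.2 CPM in untreated ones (log2 fold change 1.55 ± 0.22, adjusted p = 0.00176), and was called in all 12 alternatives. Scai, which encodes a suppressor of the SRF coactivators, had 28.8 and 30.0 CPM in IFN-beta libraries, against 51.6 and 38.9 CPM in untreated libraries. Both treated values of Scai were below both untreated ones, and its log2 fold change of -0.62 ± 0.16 missed the threshold (adjusted p = 0.0638), though it passed in 6 of the 12 alternatives. Phf10, a subunit of a chromatin remodelling complex, was at -0.21 (adjusted p = 0.429).

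The TGF-beta list held ligands, receptors and SMADs, and also Ski, Skil, Thbs1, integrin genes and latent TGF-beta binding proteins. Of its 20 genes, 1 was called higher and 0 lower, with a median of 0.03. This was Thbs1, which encodes thrombospondin 1, an activator of latent TGF-beta, and no gene for a ligand, receptor or SMAD was called. It had 2527 and 2072 CPM in IFN-beta libraries, against 734 and 1441 CPM in untreated libraries (log2 fold change 1.08 ± 0.27, adjusted p = 0.0477). The Thbs1 call was lost in 4 of the 12 alternatives, with an adjusted p up to 0.216 by DESeq2, and leaving out untreated replicate 1 or 2 gave log2 values of 0.70 and 1.65. The latent TGF-beta binding protein gene Ltbp1 was at 0.59 (adjusted p = 0.0714), the receptor gene Tgfbr1 at -0.33 (adjusted p = 0.193) and the inhibitory Smad7 at 0.50 (adjusted p = 0.250).

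The list of focal adhesion genes holds Vcl itself, and the other 20 tested genes gave 0 calls in either direction, with a median log2 fold change of 0.29. At an unadjusted p below 0.05 the counts among these 20 were 7 higher and 1 lower, beside 9.6% and 8.56% of all tested genes, DESeq2 called 1 higher (Ptk2) and limma-voom called 0. Ptk2, which encodes focal adhesion kinase, had 171 and 174 CPM in IFN-beta libraries, against 110 and 135 CPM in untreated libraries (log2 fold change 0.50 ± 0.14, adjusted p = 0.0745). Tln1, which encodes talin 1, was at 0.45 (adjusted p = 0.182). Zyx, which encodes the tension-sensing protein zyxin, was at 0.64 (adjusted p = 0.184). Of these 20 genes, 18 were higher in untreated replicate 2 than in untreated replicate 1, beside 50.8% of all tested genes. Without untreated replicate 2, 11 of 21 tested genes other than Vcl were called higher, beside 15.3%. Immediate early SRF targets, many of which respond through ternary complex factors, gave 0 calls among 13 tested genes other than Srf. Their median log2 fold change was 0.31. At an unadjusted p below 0.05 the counts were 3 higher and 0 lower, and DESeq2 and limma-voom each called 1 higher, the phosphatase gene Dusp5. Dusp5 was at 0.99 ± 0.25 (adjusted p = 0.0519), the early response gene Ier3 at 0.44 (adjusted p = 0.258) and the zinc finger gene Egr1 at 0.77 (adjusted p = 0.262). The lists share some genes, so their counts are not independent.

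**Figure D5:**
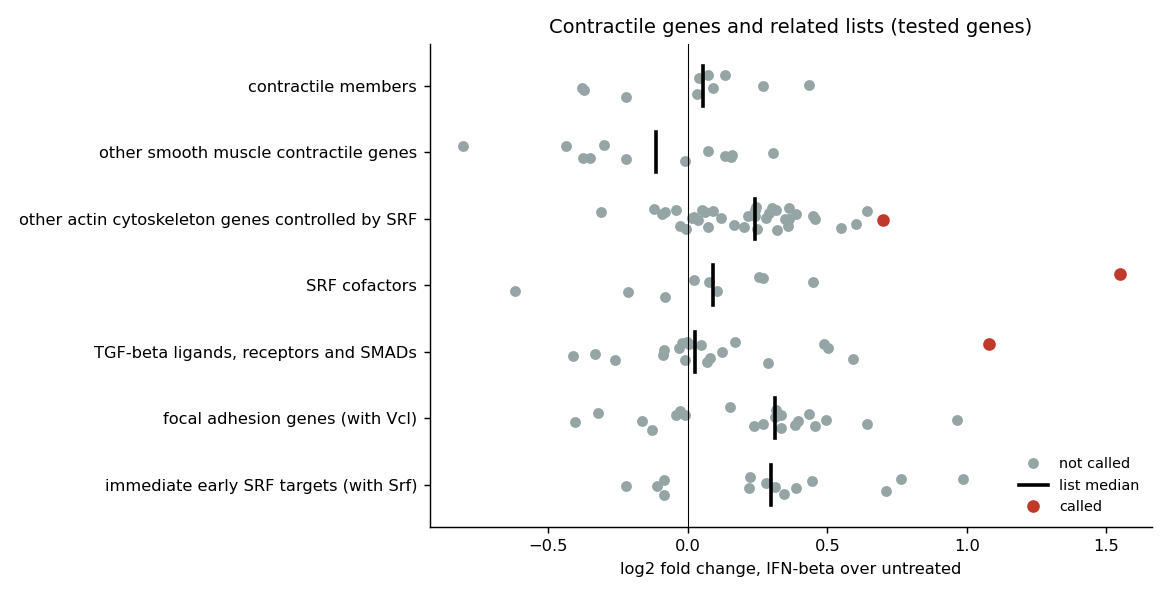
Log2 fold change, IFN-beta over untreated, of every tested gene in the contractile set and 6 related lists, with called genes in red, other genes in grey and the list median as a black bar (vertical scatter within a list has no meaning). Called genes are Filip1l, Klf4 and Thbs1; list medians run between -0.12 for other smooth muscle contractile genes and 0.31 for focal adhesion genes with Vcl counted.

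The cells had the markers of fibroblasts and little of those of mature muscle. All 14 fibroblast markers were tested, led by S100a4, Vim and Fn1, and their summed level was 9888 and 10106 CPM in IFN-beta libraries, against 9477 and 9172 CPM in untreated ones. Of these 14, 9 had a log2 fold change above 0 and 5 below. Their levels were uneven, and Lum was low, at 2.58 and 1.01 CPM in IFN-beta libraries, against 4.21 and 1.21 CPM in untreated ones. Dcn had 29.4 and 19.4 CPM in IFN-beta libraries, against 40.9 and 19.6 CPM in untreated ones. Twist1, which encodes a mesenchymal transcription factor, was called higher (log2 fold change 0.72, adjusted p = 0.0437). The Twist1 call was lost in 3 of the 12 alternatives, with an adjusted p of 0.0632 without IFN-beta replicate 1, 0.073 with upper quartile scaling and 0.0808 with total library size. Pdgfra, a PDGF receptor gene named after its values were seen, had 39.0 and 30.9 CPM in IFN-beta libraries, against 68.1 and 39.4 CPM in untreated libraries (log2 fold change -0.62 ± 0.24, adjusted p = 0.199), and was called lower in 4 of the 12 alternatives. The 7 markers of differentiated smooth muscle summed to 28.4 and 25.3 CPM in IFN-beta libraries, against 20.8 and 35.0 CPM in untreated ones. Nearly all of that came from Smtn and Lmod1, while the smooth muscle myosin gene Myh11 was at 0 and 0.302 CPM in IFN-beta libraries, against 0.156 and 0.417 CPM in untreated libraries, and the desmin gene Des had at most 0.112 CPM. The 11 skeletal muscle markers summed to at most 0.624 CPM in any library, with 7 of them at 0 in all 4, and the 7 cardiac markers to between 2.91 and 6.30 CPM, nearly all from Tnnt2. The 7 epithelial markers summed to at most 1.18 CPM. Blood cell markers summed to 14.01 and 7.61 CPM in IFN-beta libraries, against 16.1 and 9.48 CPM in untreated ones, and neural markers, mostly Nes and Map2, to 107 and 123 CPM, against 90.7 and 133 CPM. Endothelial markers were low, at 3.31 and 2.02 CPM in IFN-beta libraries, against 1.09 and 1.14 CPM in untreated ones. The endothelial cadherin gene Cdh5 was called higher from 43 counts over the IFN-beta libraries, against 8 counts over the untreated libraries (adjusted p = 0.0140, but 0.0777 without IFN-beta replicate 1), while Tie1 and Emcn had 0 counts in all 4. The part of other cell types in the values of the contractile genes was not tested.

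The IFN-beta libraries held 18901845 and 20714161 gene counts, and the untreated libraries 18528685 and 24817342. Reads without a unique alignment made up 34.9% and 37.2% of records in the IFN-beta libraries, against 33.0% and 29.8% in the untreated libraries. At this depth every member except Acta1 had at least 978 counts in each library.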

How the data were processed

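RNA-seq libraries of IFN-beta-treated and untreated mouse embryonic fibroblasts were compared, 2 per group, grouped by the sample labels. The authors deposited raw read counts for each gene symbol, in a separate table for every library. Per the labels' protocols, Trizol was used for RNA and a TruSeq RNA kit for libraries. The submitters' processing notes name TopHat2 2.0.13, HTSeq 0.7.2 and build mm9. The annotation and strand setting are not given in the sources used here. Whether the reads of a gene were kept apart from those of an overlapping antisense gene is therefore not known. The summary line for ambiguous reads held between 0.466% and 0.535% of all records. Summary lines that name no gene were left out; genes held between 38.7% and 42.7% of all records.

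Genes were tested with edgeR 4.0.16 (R 4.3.3), quasi-likelihood F test, TMM, group as the only term, default filter (minimum count 10, minimum total count 15), with a threshold of 0.05 on the adjusted p (Benjamini-Hochberg). Standard errors were the size of the log2 fold change over the square root of F, and 95% intervals used the fit's degrees of freedom. CPM use library sizes multiplied by the TMM factor. An exact permutation test of 2 against 2 cannot go below p = 0.333 and was not used. The procedure was tested on simulated data. Replicates were not copies of one library (chi-square per gene 11.5 for the IFN-beta pair and 32.3 for the untreated pair).

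The members and lists were chosen with earlier results of these data known. Named were all members, called genes of each list (the 5 with the smallest p where more than 5), up to 3 others per list with the smallest p, and markers at 1 CPM or more (the top 3 where more than 5). Results for 1 gene and 1 list under this rule are not reported here. Other named genes were chosen after their values were seen. Alternatives were DESeq2 1.42.0 size factors and Wald test, total library size, upper quartile scaling, no filter, a CPM of 1 in at least 2 libraries, limma-voom (limma 3.58.1), a replicate block, and each library left out.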

Additional observations from a re-analysis of the deposited data

How the results depend on the processing

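No contractile gene was called by edgeR with DESeq2 size factors, upper quartile scaling, the stricter filter, DESeq2, limma-voom or the replicate block. Members called higher were 1 without a count filter and 0 to 2 with a library left out, and members called lower were 2 with total library size and 0 to 2 with a library left out. The sign of small differences followed the scaling. With total library size the log2 fold change was -0.012 for Actg2, -0.115 for Acta1, -0.075 for Tagln, -0.105 for Tpm1 and -0.054 for Tpm2, and with upper quartile scaling it was -0.034 for Acta1, -0.0015 for Tagln and -0.032 for Tpm1. With a library left out Acta1 ran between -0.49 and 1.07 and Tpm1 between -0.011 and 0.12. Over all tested genes, 574 were called higher, with 863 without a count filter and 470 to 1885 with a library left out. Called lower were 60, with 350 under total library size, 128 under upper quartile scaling, 381 without a count filter, 103 by DESeq2, 155 with the replicate block and 24 to 1728 with a library left out. The highest counts came without untreated replicate 2, and the cause was not tested.

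In the related lists, calls of higher genes changed as follows. Other actin cytoskeleton genes had 6 without a count filter, 3 by DESeq2, 3 with the replicate block and 0 to 21 with a library left out. SRF cofactors had 2 without a count filter, 2 by DESeq2 and 1 to 4 with a library left out. TGF-beta genes had 0 with total library size, upper quartile scaling or the stricter filter, 4 without a count filter, 2 with the replicate block and 1 to 4 with a library left out. Focal adhesion genes, with Vcl counted, had 5 without a count filter, 1 by DESeq2, 2 with the replicate block and 1 to 12 with a library left out. Immediate early targets, with Srf counted, had 2 without a count filter, 1 each with DESeq2 size factors, DESeq2, limma-voom and the replicate block, and 0 to 6 with a library left out. Other smooth muscle genes had 0 to 3 with a library left out. Calls of lower genes were 1 among SRF cofactors (Scai) with the replicate block, DESeq2, no count filter, upper quartile scaling or total library size, and 0 to 1 with a library left out, as in the actin cytoskeleton, focal adhesion and immediate early lists.

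The replicate numbers are not said to pair libraries. Deviations of same-numbered libraries correlated across genes at -0.03, and the replicate block left members called at 0 in each direction. With 2 libraries a group, the intervals still allow changes in both directions for several members. Folds of 0.979 to 1.48 are allowed for Acta2, 0.884 to 1.36 for Actg2 and 0.855 to 1.29 for Tagln. For Tpm1 the interval is 0.834 to 1.27, for Tpm2 0.887 to 1.28 and for Srf 0.679 to 1.08. The intervals of Cnn1 and Myl9 reach down to 0.638 and 0.632, and that of Vcl reaches up to 1.77. Acta1 rests on few counts.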
